A study of Mus musculus with 19 samples.

Results

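RNA was compared between mouse embryonic stem cells with a knockdown of the long noncoding RNA Lhx1os by a short hairpin RNA (shLhx1os) and cells with a control hairpin, both harvested on day 6 after leukaemia inhibitory factor (LIF) had been withdrawn. These are 2 of the 19 libraries of the series, with 1 library a side, so each difference below has no replicate check and carries no test. Levels are fragment counts scaled to transcript length and library size (FPKM), as deposited. Of 38424 entries in the table (genes, and 11588 loci with no gene name), 9015 reached 5 FPKM in at least 1 of the 2 libraries. These 9015 are called the entries at the floor. Crtc1, at 5.00 FPKM in the control and 4.78 in the shLhx1os library, lay just inside the floor, and the unnamed locus XLOC_007218, at 2.87 FPKM in the control and just under 5 FPKM in the shLhx1os library, lay just outside.

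Both cultures were of the CJ9 embryonic stem cell line, of 129S4/SvJae strain background, in a medium with fetal calf serum and without LIF, the cytokine that holds these cells in an undifferentiated state. The labels name the hairpin's target only. They give neither its sequence, nor the control's target, nor whether cells were a clone or a pool. The other libraries used here are the CJ9 controls of day 4 (1 library) and day 5 (2 libraries, made for a Fendrr hairpin), the shFendrr and shEVX1 knockdowns of CJ9 cells, the shEvx1as knockdown of CJ7 cells, and libraries of another line, 46c, harvested on day 4 with 5 nM retinoic acid, the last only for the spread between replicates. Where a group has 2 libraries, nothing says that they came from separate cultures.

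Lhx1 encodes a LIM-homeodomain transcription factor that works with the cofactor Ldb1. In the mouse embryo it is known for its role in the head organizer and anterior mesendoderm, and later in the intermediate mesoderm from which the kidney and gonads form. Lhx1os is read from the opposite strand, away from Lhx1, and noncoding RNAs of this divergent kind share their promoter region with the coding neighbour.

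The stretch between the RefSeq start sites of the 2 genes is shown because both transcripts start at its edges. It lies at chr11:84525504-84525690 of GRCm38.p6, plus strand, with Lhx1 reading leftward from 84525534 and Lhx1os rightward from 84525660. The start sites are 126 bp apart, the 125 bases between them are in capitals, and 30 bases and the start base itself flank them on each side, credited to RefSeq.
Lhx1 to Lhx1os: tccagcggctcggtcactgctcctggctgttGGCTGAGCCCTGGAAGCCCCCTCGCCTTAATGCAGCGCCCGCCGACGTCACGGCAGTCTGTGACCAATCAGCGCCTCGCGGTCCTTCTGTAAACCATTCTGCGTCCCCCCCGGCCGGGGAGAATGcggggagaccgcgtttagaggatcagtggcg
The capitals hold 66.4% G or C and 12 CpG dinucleotides.

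Some library facts stand beside every result. The shLhx1os library had the lowest summed FPKM of the 19 (559050, control 597017, highest 655315) and, from the steps of low entries, 0.865 of its control's depth. Entries of 1 FPKM or more numbered 12545 in the control and 12422 in the shLhx1os library. Across 10868 entries that reached 5 FPKM anywhere, its levels correlated most with those of shFendrr replicate 2 of day 5 (Pearson r = 0.964), more than with its own control (0.939), whose closest library was a day-5 control (0.962). The differences between the shLhx1os library and its control correlated with those of shFendrr replicate 2 against its own day-5 controls (r = 0.726 over 9015 entries, which are not independent replicates), and 952 of the 1021 entries that differed at least 2-fold (93.2%) had the same sign there. For shFendrr replicate 1 these were 0.166 and 627 (61.4%). The 15 largest differences each way were picked by the rule given under processing. All of the 15 upward ones and 12 of the 15 downward ones had the same sign in shFendrr replicate 2. In replicate 1 these were 6 and 12. The differences also ran with the difference between the 2 shFendrr libraries (r = 0.587) and between the 2 day-5 controls (0.446), whereas r with the other 5 pairs lay between -0.12 and -0.01. Against their own control, the 2 shEvx1as libraries of CJ7 cells gave r = 0.369 and 0.231, with 785 (76.9%) and 668 (65.4%) of the same sign. The 2 shEVX1 libraries gave r = -0.13 and -0.18, with 346 (33.9%) and 336 (32.9%) of the same sign. The part of this shared pattern in the results was not tested, and shFendrr medians, relative to its own day-5 controls, are given below for the main lists.

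The targeted RNA was at the limit of what these libraries could show. Lhx1os, listed as 1500016L03Rik at chr11:84339162-84349333 in the table's own coordinates (not GRCm38), had 0.0883 FPKM in the control and was listed at 0 in the shLhx1os library. Over the 19 libraries its values were whole multiples of a single step, to within 0.0397 of a whole number once relative depth was allowed for, and the control's value was 1 such step. A fall from 1 step to none is not detectable at this depth, so the values do not check the knockdown. The day-5 CJ9 controls had 8 and 5 steps (0.818 and 0.562 FPKM) and the day-4 CJ9 control 2 (0.214 FPKM). The day-6 control thus held fewer steps than any earlier CJ9 control, and leaves no room to see a decrease.

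Lhx1 itself, at chr11:84332881-84339036 in the table's coordinates, had 24.3 FPKM in the day-4 CJ9 control, 13.0 and 12.1 in the day-5 controls, 6.06 in the day-6 control and 1.32 in the shLhx1os library. The shLhx1os value was below all 4 CJ9 controls, as were those of 33.1% of the entries at the floor, and the controls themselves were lower on later days. Changes are given throughout as log2(FPKM + 1) in the shLhx1os library minus the same in the control, on which scale low genes show less than their true fold. Lhx1 had a change of -1.61, while its largest difference between the 2 libraries of any replicate pair was 1.85. The pair with that largest difference was shEvx1as of CJ7 cells (5.80 and 0.885 FPKM). The 2 shFendrr libraries had 12.5 and 3.48 FPKM, and the 2 day-5 CJ9 controls, as above, 13.0 and 12.1. By the yardstick of 1.85 the Lhx1 change was not larger than differences seen between libraries of the same group. In bulk RNA, fewer cells of a type and less RNA per cell cannot be told apart, here and in all that follows.

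Of the 21 entries within 500 kb of Lhx1, 12 were at the floor, and Lhx1 and Car4 were the 2 that differed at least 2-fold, both lower. Car4, a membrane-bound carbonic anhydrase whose entry starts 432220 bp from Lhx1, had 69.9 FPKM in the control and 3.17 in the shLhx1os library, a change of -4.09 against a largest replicate difference of 2.67. The other CJ9 controls had 13.7 FPKM on day 4 and 82.1 and 35.1 on day 5, all above the shLhx1os value. In shFendrr, Car4 had 52.3 FPKM in replicate 1 and 7.35 in replicate 2, so a low level was not particular to the shLhx1os library. Aatf, the nearest neighbour on the Lhx1 side, had 25.3 and 19.8 FPKM (change -0.34), and Acaca, the cytosolic acetyl-CoA carboxylase, 11.3 and 7.17 (change -0.59). Dusp14, a dual-specificity phosphatase, was the highest of the neighbourhood relative to its control, with 57.2 and 97.5 FPKM (change 0.76). Its level in shFendrr was 36.9 in replicate 1 and 96.4 in replicate 2. None of the last 3 passed 2-fold.

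The partners of Lhx1 were present in both libraries. Ldb1 had 100.2 FPKM in the control and 77.0 in the shLhx1os library (change -0.38), and the single-stranded DNA-binding partner Ssbp3 had 219.9 and 213.8 (change -0.04). Of 22 LIM-homeodomain genes and cofactors, 6 were at the floor, 2 higher and 4 lower, with Lhx1 the 1 that passed 2-fold. Of 20 organizer and anterior mesendoderm genes, 7 were at the floor, with Nog 2-fold higher and Foxa2, Lhx1 and Dkk1 2-fold lower. Of the 7, Foxa2 and Lhx1 reached the floor in the control alone and had to be lower. The median of the 7 was -0.33, and over all 20 it was -0.17. Foxa2, a forkhead factor of the node and endoderm, had 7.76 and 0.74 FPKM. Dkk1, a secreted Wnt inhibitor, had 18.1 and 6.83, and the BMP inhibitor Nog 10.7 and 29.7. Of 28 intermediate mesoderm and kidney genes, 10 were at the floor, 5 of them 2-fold lower and none 2-fold higher, and 5 reached it in the control alone, while Pax2 (0 and 0.0588 FPKM), Pax8 (0.0302 and 0.123) and Osr1 (0.0991 and 2.40), which define that mesoderm, were below the floor in both libraries.

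Across the 9015 entries at the floor, 459 (5.09%) were at least 2-fold higher in the shLhx1os library and 562 (6.23%) at least 2-fold lower, together 11.3%. By any amount 41.9% were higher and 58.1% lower, and 23.0% lay above all 4 CJ9 controls and 33.1% below all 4, so that a value outside the range of these controls was common. In 7 pairs of libraries of the same group, counted the same way, between 0.377% and 4.34% of entries differed at least 2-fold. The widest pairs were shFendrr (4.34%) and the retinoic acid controls (4.08%), and the CJ9 controls of day 5 differed in 1.06%. For a stricter count, an entry was called beyond the replicate yardstick where it was at least 2-fold and larger than its own largest difference over those 7 pairs. That left 391 higher (4.34%) and 529 lower (5.87%). Of these, 342 lay above all 4 CJ9 controls and 381 below all 4, so that 49 and 148 lay within the range of CJ9 controls of other days. Without the shFendrr pair in the yardstick, an alternative chosen after seeing the data, 425 entries were higher and 537 lower. The share of higher entries among those beyond the yardstick was 42.5% as deposited, 51.6% with both libraries rescaled to the same total and 52.0% with changes centred on their median (-0.09), so the excess of lower entries depended on scaling.

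**Figure D1:**
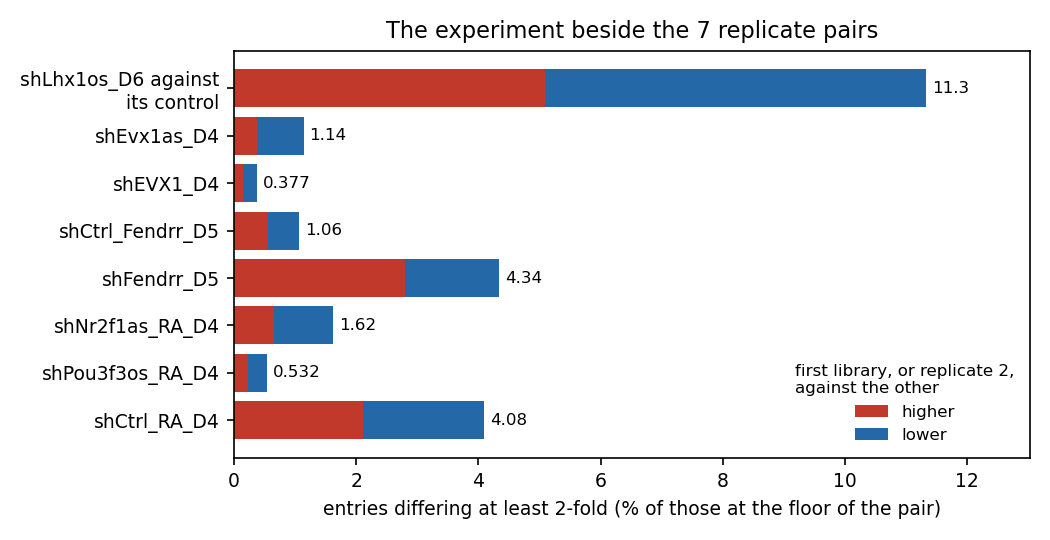
Percent of entries at the floor of each pair that differed at least 2-fold, for shLhx1os against its control and for the 7 pairs of libraries of the same group (bars; red, higher; blue, lower). The Lhx1os pair reached 11.3%, and the widest replicate pair 4.34%.

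**Figure D2:**
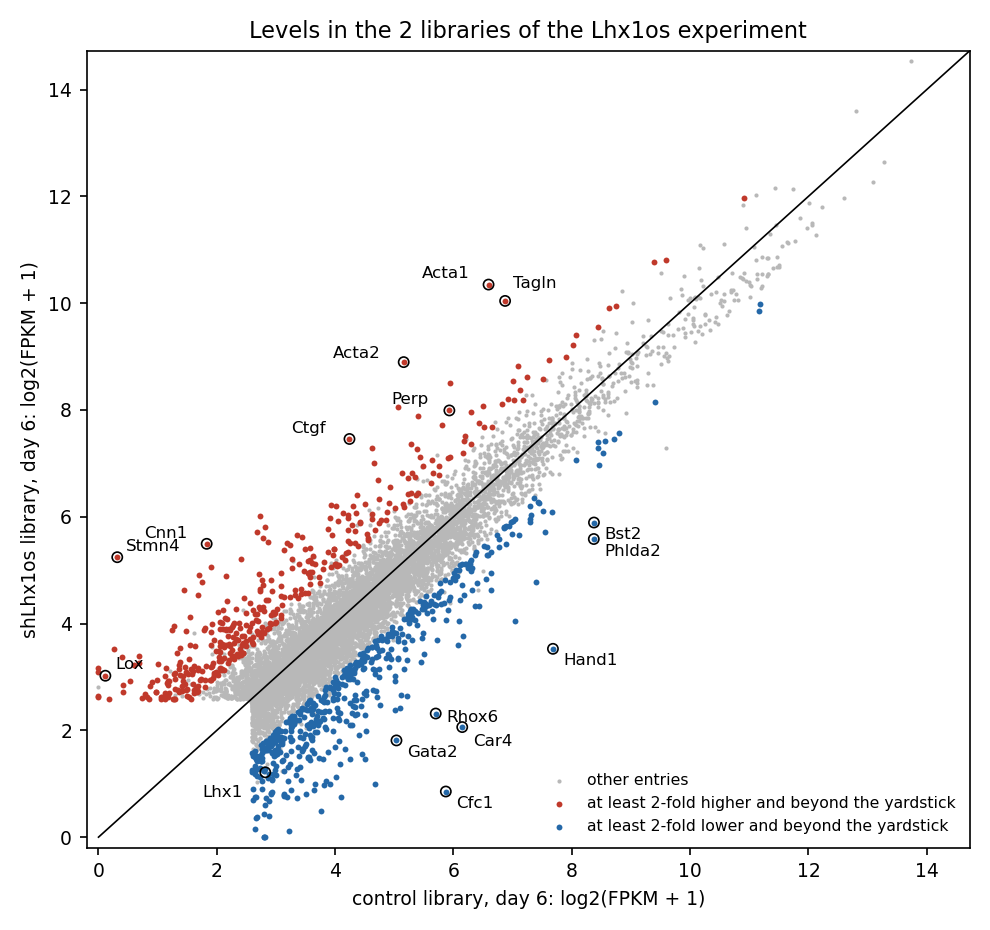
Levels of the 9015 entries at the floor in the control (horizontal) and shLhx1os library (vertical), both as log2(FPKM + 1), with the line of equal levels and selected genes circled. The 391 entries in red were higher and the 529 in blue lower beyond the replicate yardstick, and Lhx1 is circled but not among them.

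Of the 15 largest upward differences among entries with a gene name and beyond the yardstick, 6 were in genes of the contractile cytoskeleton. Acta1, skeletal alpha-actin, had 124 FPKM in the day-4 CJ9 control, 99.9 and 279 in the day-5 controls, 95.5 in the day-6 control and 1302 in the shLhx1os library. Acta2, smooth muscle alpha-actin, had 36.3, then 21.6 and 66.2, then 34.7 in the controls and 475 in the shLhx1os library. Both stood above every CJ9 control, and their changes (3.75 and 3.74) exceeded their largest replicate differences (2.49 and 2.56). Tagln, the actin-binding protein transgelin, had 116 and 1053 FPKM, against 242 to 449 in the earlier CJ9 controls. Cnn1, calponin, had 2.55 and 44.0 FPKM, yet 49.3 in the day-4 control, so its level was above the controls of days 5 and 6 and not that of day 4. Myl9, a regulatory myosin light chain, stood likewise, with 5.40 and 51.6 FPKM and 81.9 on day 4. Actg2, enteric gamma-actin, had 0.195 and 10.4 FPKM.

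Of 25 smooth muscle and contractile genes, 19 were at the floor, 13 higher and 6 lower, with 11 at least 2-fold higher, 4 at least 2-fold lower and a median change of 1.20 against -0.09 for all entries at the floor. Of the 19, 3 reached the floor in the control alone and 4 in the shLhx1os library alone, and over all 25 the median was 0.65. Against the mean of the day-5 controls the median of the 19 was 1.30, so the direction did not rest on the day-6 control. The 4 members at least 2-fold lower were the slow and cardiac-type sarcomere genes Tnni1 (5.93 FPKM, listed at 0 in shLhx1os), Myl4 (12.0 and 2.93) and Tnnc1 (38.1 and 11.9), and the LIM protein Csrp2 (183 and 68.0). The list thus split, with actins, calponin, transgelin, tropomyosins and the light chain Myl9 higher. The troponins Tnni1 and Tnnc1, the light chain Myl4 and Csrp2 were lower. In shFendrr replicate 2 the median of the same 19 genes was 1.01 relative to the day-5 controls and in replicate 1 it was -0.20. Acta2 had 152 FPKM in the former and 25.0 in the latter.

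Fibroblast markers were read beside these genes because feeder cells and fibroblasts also express Acta2 and Tagln. Of 22 such genes, 15 were at the floor, 11 higher and 4 lower, with a median of 0.87 (over all 22, 0.53). Of the 15, 4 reached the floor in the shLhx1os library alone, Lox and S100a4 among them, and had to be higher, and 1 in the control alone. The median in shFendrr was -0.18 in replicate 1 and 0.06 in replicate 2. The summed level of the list was 1027 FPKM in the control and 3097 in the shLhx1os library. Most of that difference lay in Tagln, Acta2 and Fn1 (526 and 1031 FPKM). The fibrillar collagens split. Col1a1 had 33.4 and 28.6 FPKM and Col1a2 11.7 and 7.85, whereas Col5a2 had 5.26 and 17.2 and Col3a1 2.51 and 5.41. Pdgfrb, a receptor of mesenchymal cells, was lower at 7.65 and 1.73. Lox, which cross-links collagen, had 0.0839 and 7.13 FPKM, and S100a4 1.80 and 13.6. In the control 2 members, Fap and Lum, were listed at 0, and in the shLhx1os library none. The part of such cells in the contractile result was not tested.

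Immediate early genes, which respond to serum and to other acute signals, were mostly higher. Ctgf, a matricellular protein, had 17.9 FPKM in the control and 175 in the shLhx1os library, with 21.2 to 25.2 in the day-5 controls, and Cyr61, of the same family, 60.7 and 360. Edn1, the vasoconstrictor peptide endothelin, had 2.72 and 32.2 FPKM, although its largest replicate difference (2.67) was near its change of 3.15. Of 18 immediate early genes, 14 were at the floor, 11 higher and 3 lower, and 4 passed 2-fold, all higher: Ctgf, Cyr61, Atf3 and Nr4a1. Atf3 (8.43 and 21.6 FPKM) and Nr4a1 (19.9 and 42.9) were within the range of the CJ9 controls, with 30.3 and 46.8 on day 4. The first-wave genes Fos (10.3 and 6.59 FPKM) and Egr1 (6.99 and 6.93) were not among them. After rescaling 7 passed 2-fold. The list's median was 0.74 (over all 18, 0.48), and in shFendrr 0.04 in replicate 1 and 0.78 in replicate 2.

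**Figure D3:**
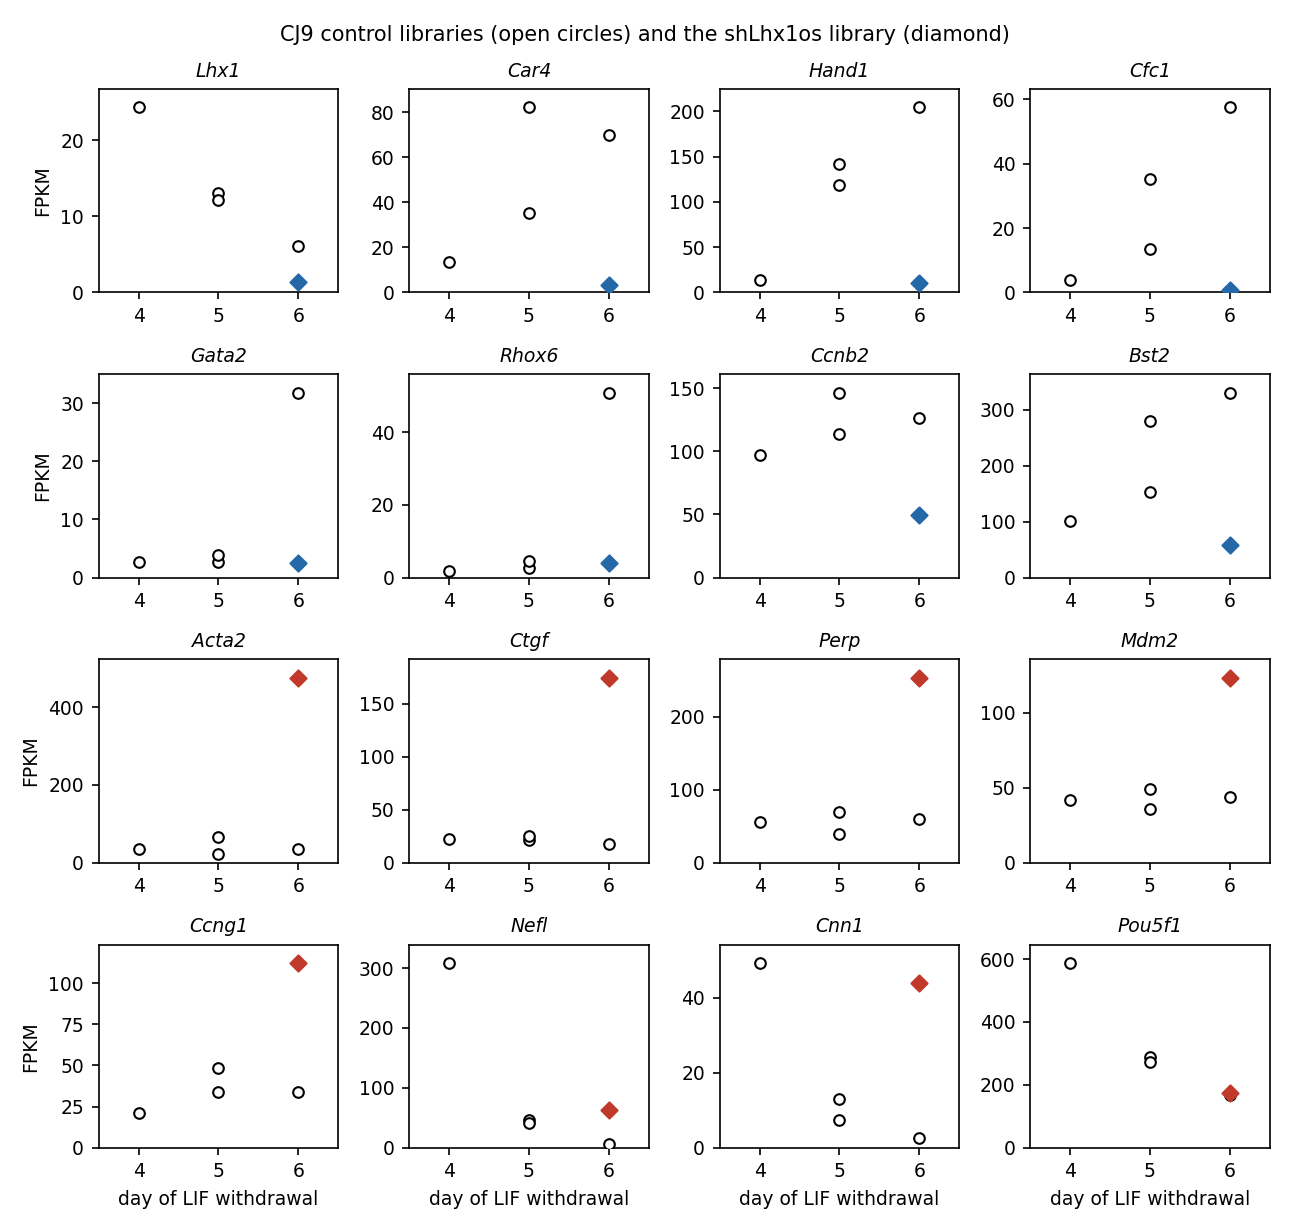
FPKM of 16 genes in the 4 CJ9 control libraries (open circles) and the shLhx1os library (diamonds; red, above its day-6 control; blue, below) against the day of LIF withdrawal. Acta2, Ctgf, Perp, Mdm2 and Ccng1 stand above all 4 controls in the shLhx1os library, while Gata2 and Rhox6 stand out in the day-6 control alone.

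Promoters of contractile genes are shown for the CArG box, the DNA element bound by serum response factor, which is known to drive actin genes. RefSeq windows ran from 250 bases before the start site to 50 after it (GRCm38.p6). They were found for 9 of the 11 contractile genes at least 2-fold higher, all but Tagln and Actg2. Of the 9, 3 held a match, as did 1 of 7 windows (14.3%) of the other contractile genes at the floor. A match is CC, then a run of A or T alone, then GG, of the length in capitals below. Near matches, as in the Acta2 window, were not counted, so a window without a match need not lack the element. The match is in capitals, each window is given 5′ to 3′ on the gene's own strand, and positions are counted from the start site, with those before it negative. The match begins at -73 in Acta1, at -47 in Actc1 and at -161 in Myl9.
Acta1, chr8:123894726-123895025, minus strand: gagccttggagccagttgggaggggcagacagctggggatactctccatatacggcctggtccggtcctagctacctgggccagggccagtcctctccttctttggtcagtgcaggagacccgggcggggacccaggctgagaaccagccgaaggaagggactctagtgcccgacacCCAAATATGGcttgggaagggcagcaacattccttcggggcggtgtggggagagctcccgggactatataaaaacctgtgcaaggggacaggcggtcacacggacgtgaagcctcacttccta
Actc1, chr2:114052826-114053125, minus strand: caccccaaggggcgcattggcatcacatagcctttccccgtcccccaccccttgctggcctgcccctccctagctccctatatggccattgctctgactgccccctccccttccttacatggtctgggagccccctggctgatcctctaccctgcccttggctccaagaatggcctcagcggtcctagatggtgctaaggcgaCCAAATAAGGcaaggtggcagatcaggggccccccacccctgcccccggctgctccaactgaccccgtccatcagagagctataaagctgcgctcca
Myl9, chr2:156775214-156775513, plus strand: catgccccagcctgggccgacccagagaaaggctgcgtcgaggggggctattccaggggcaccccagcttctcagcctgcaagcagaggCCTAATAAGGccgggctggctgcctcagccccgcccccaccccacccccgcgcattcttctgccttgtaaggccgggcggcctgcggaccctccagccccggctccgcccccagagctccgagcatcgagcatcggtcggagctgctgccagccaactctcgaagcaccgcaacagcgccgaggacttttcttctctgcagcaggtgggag
Actc1, cardiac alpha-actin, had 0.607 FPKM in the control and 9.53 in the shLhx1os library, below the 15.6 of the day-4 CJ9 control. Of all 27025 genes with a window, 1.81% held a CArG match, and of those at the floor 1.77% of 6785. The share was 5.69% of 281 windows for entries at least 2-fold higher and 1.95% of 410 for entries at least 2-fold lower. The letters GGAATG, on either strand, the core of the element bound by TEAD factors, were in 16.6% of all windows, in 17.1% for higher and in 14.6% for lower entries. Among contractile genes they were in 4 of the 9 windows (44.4%) of those at least 2-fold higher. Of the other contractile genes at the floor, 1 of 7 windows (14.3%) held them. These are matches of letters, not sites of binding.

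Targets of the tumour suppressor p53 were higher as a group. Of 19 such genes 17 were at the floor, and all 17 were higher under each scaling used, 10 of them at least 2-fold and beyond the yardstick. The median was 1.09, and 1.12 against the day-5 controls. Cdkn1a, the p21 inhibitor of cyclin-dependent kinases, had between 48.6 and 78.6 FPKM in the 4 CJ9 controls and 133 in the shLhx1os library. Mdm2, the ligase that degrades p53 and is itself its target, had 41.6, 36.1, 49.3 and 44.0 in the controls and 123 in the shLhx1os library. Both genes lay above all 4 controls, as did 23.0% of all entries at the floor.

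Further p53 targets followed the same order. Ccng1, cyclin G1, had 34.1 and 112 FPKM. Plk2, a polo-like kinase, had 24.1 and 128. Perp, a desmosomal and apoptosis-linked membrane protein, had 60.0 and 253, and the death receptor Eda2r 3.47 and 13.8. Of the 17 at the floor, 1 reached it in the shLhx1os library alone, Eda2r, which had to be higher. Over all 19 the median was also 1.09. The apoptotic effectors were closer to the control, with Bax at 151 and 197 FPKM and Bbc3 at 27.2 and 35.9, while Pmaip1, which encodes Noxa, had 6.63 and 23.5. In all, 16 of the 17 lay above all 4 CJ9 controls, against that background of 23.0%, the exception being Sesn2 (46.5 FPKM, against 49.5 on day 4). Of the 2 below the floor, Fas was higher (0.907 and 3.23) and Sesn1 lower (4.72 and 2.16). The median of the list in shFendrr was 0.78 in replicate 2 and -0.02 in replicate 1, relative to the day-5 controls.

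Genes of cell division were lower. All 26 of the proliferation genes at the floor (of 28) were lower as deposited, and 24 of 26 after rescaling. Each of the 26 was below all 4 CJ9 controls, against 33.1% of all entries at the floor, in the library with the lowest summed FPKM. The median was -0.72, and 8 were at least 2-fold lower (5 after rescaling). In shFendrr the median was 0.06 in replicate 1 and -0.28 in replicate 2. Ccnb2, a mitotic cyclin, had 97.0, 146, 114 and 126 FPKM in the CJ9 controls and 49.8 in the shLhx1os library. Aurkb, a mitotic kinase, had 54.0 in the day-6 control and 23.4 in the shLhx1os library, and E2f1, the factor that turns on S-phase genes, 21.7 and 9.45. The replicative helicase subunit Mcm6 had 131 and 61.2, whereas the G1/S cyclin Ccne1 was level at 30.6 and 29.7.

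The biosynthetic lists were lower by smaller amounts. All 33 cytosolic ribosomal protein genes were lower as deposited (31 after rescaling), none by 2-fold, with a median of -0.59, and in shFendrr the median was -0.07 and -0.29. Rps15 had 2353 and 1253 FPKM and Rps18 2382 and 1283. Of 21 genes of cholesterol synthesis and uptake at the floor, 19 were lower, with a median of -0.42 (-0.66 against the day-5 controls), led by Dhcr7 (32.5 and 12.2 FPKM) and Fdps (163 and 80.7). In shFendrr the cholesterol median was -0.05 in replicate 1 and -0.27 in replicate 2. The 31 nuclear-encoded oxidative phosphorylation genes did not share this, with 18 higher and 13 lower as deposited (25 and 6 after rescaling), a median of 0.06 (-0.11 against the day-5 controls) and none past 2-fold. Housekeeping genes had a median of -0.04, which was 0.05 after rescaling or centring.

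Glycolytic and hypoxia-response genes were lower in 22 of 24 cases at the floor, 12 of them at least 2-fold, with a median of -0.94. Ldha, lactate dehydrogenase, had 674 FPKM in the control and 283 in the shLhx1os library, with 755 and 675 in the day-5 controls, and Pgk1, phosphoglycerate kinase, 348 and 155. Bnip3, a mitophagy receptor induced by low oxygen, had 8.21 and 1.48. Vegfa, the endothelial growth factor, had 25.7 and 7.0 FPKM, the latter within the 5.95 to 11.3 of the earlier CJ9 controls. Ndrg1, a hypoxia-induced gene, had 31.2 and 7.12, the latter above the 4.13 to 5.27 of the earlier controls. The glucose transporter Slc2a1 was level at 902 and 918. Of the 24, 4 reached the floor in the control alone. The median was -0.47 against the day-5 controls, and in shFendrr it was -0.17 in replicate 1 and -0.44 in replicate 2.

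**Figure D4:**
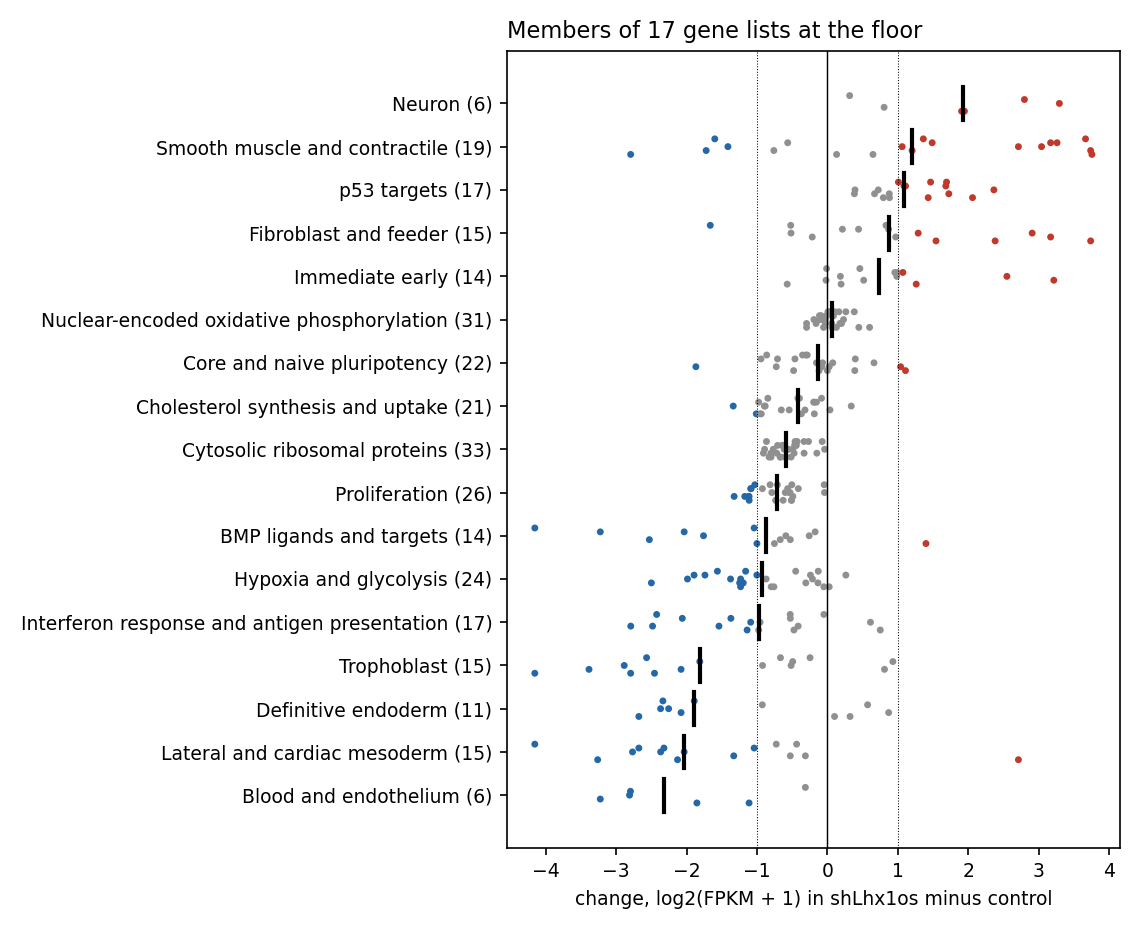
Change of each member at the floor of 17 gene lists (points; red and blue, at least 2-fold) with the list median (bar) and the number of members in brackets; dotted lines mark 2-fold. All 17 p53 targets lie above 0, and all 26 proliferation and 33 ribosomal protein genes below it.

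Factors of lateral and cardiac mesoderm were among the largest decreases. Of 30 such genes 15 were at the floor, 14 lower and 1 higher, 10 of them at least 2-fold lower, with a median of -2.03 (over all 30, -0.71). Against the day-5 controls the median was -1.26, and in shFendrr it was -0.66 in replicate 1 and -0.71 in replicate 2. Of the 15, 7 reached the floor in the control alone, and such genes had to be lower. The same held for 6 of 11 definitive endoderm, 5 of 6 blood and endothelial, 5 of 17 interferon, 4 of 14 BMP and 3 of 15 trophoblast genes described below, whose medians over all members in the table were -0.42, -0.49, -0.59, -0.63 and -0.49. Hand1, a basic helix-loop-helix factor of heart and extraembryonic mesoderm, had 13.7, 118, 142 and 204 FPKM in the CJ9 controls of days 4, 5, 5 and 6 and 10.5 in the shLhx1os library. Its relative Hand2 had 12.5 in the day-6 control and 0.409 in the shLhx1os library. Foxf1, a forkhead factor of lateral plate mesoderm, had 11.5 and 0.842, and Gata4, a zinc-finger factor of heart and endoderm, 33.3 and 4.37. These 4 lay below all 4 CJ9 controls. Bmp4, a ligand that induces this mesoderm, was within their range at 41.8 (60.7 in the day-6 control).

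Among entries with a gene name and beyond the yardstick, the largest downward difference was Cfc1, a co-receptor of Nodal needed for left-right patterning. It had 3.84, 35.3, 13.5 and 57.5 FPKM in the CJ9 controls of days 4, 5, 5 and 6 and 0.808 in the shLhx1os library, a change of -5.02 against a largest replicate difference of 1.73. Of the 15 Nodal pathway genes at the floor it was the 1 that passed 2-fold, and Lefty1 (13.4 and 13.1 FPKM) and Smad2 (5.28 and 5.73) were near level. Nodal itself had 18.7 and 28.9. Cfc1 was also lower in both shFendrr libraries, at 7.37 and 1.52 FPKM. Prdm6, a chromatin factor of smooth muscle, had 24.5 and 1.00, and Efna1, a membrane-bound ephrin ligand, 21.8 and 1.77. Of the 15 largest downward differences, 11 lay below all 4 CJ9 controls, and of the 15 largest upward differences, 12 above all 4. Of all entries beyond the yardstick, 381 of the 529 lower ones lay below all 4, and 342 of the 391 higher ones above all 4.

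BMP ligands and targets, listed together, were lower in 13 of 14 cases at the floor, 7 at least 2-fold (5 after rescaling). Of all entries at the floor 58.1% were lower and 6.23% at least 2-fold lower. The list's median was -0.88 (-0.31 against the day-5 controls), and in shFendrr -0.58 in replicate 1 and -0.24 in replicate 2. Smad6, an inhibitory Smad induced by BMP, had 22.0 and 2.98 FPKM, Msx1 51.7 and 11.9, and Msx2 82.6 and 39.6. The Id genes were lower by less, with Id1 at 134 and 79.2 and Id3 at 159 and 106. The exception was the inhibitor Nog, named above. Among FGF genes, 6 of 15 at the floor were at least 2-fold lower, with Fgf8 at 43.3 and 12.3 FPKM, Fgf3 at 5.40 and 0.297 and Fgf15 at 6.64 and 1.09, while the feedback target Etv5 was level at 28.3 and 27.0. Of the 15, 4 reached the floor in the control alone, Fgf3 and Fgf15 among them, and had to be lower. The median was -0.41 (over all 19, -0.47), and -0.69 against the day-5 controls.

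Transcription factors of endoderm were lower. Of 11 definitive endoderm genes at the floor, 6 were at least 2-fold lower, among them Gata4, Foxa2, Cxcr4, Gata6 and Sox17. Cxcr4, a chemokine receptor used to sort endoderm, had 14.0, 30.2, 22.4 and 12.3 FPKM in the CJ9 controls and 1.79 in the shLhx1os library. Sox17 had 7.75 and 1.36, yet 0.576 in the day-4 control. The 5 that did not pass 2-fold were Epcam (121 and 63.4 FPKM, change -0.92), an epithelial adhesion molecule, and Trh, Cdh1, Krt19 and Cldn6, all 4 of them higher by less than 2-fold. The median of the 11 was -1.89, and -0.53 against the day-5 controls. In shFendrr it was -0.13 in replicate 1 and -0.33 in replicate 2.

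Trophoblast and blood genes were a different case, because several were high in the day-6 control and in no other CJ9 control. Rhox6, an X-linked homeobox gene of placenta and germ cells, had 1.81, 2.68 and 4.50 FPKM in the controls of days 4, 5 and 5, 51.0 in that of day 6 and 3.98 in the shLhx1os library. Gata2, a factor of trophoblast and blood, had 2.66, 2.68, 3.89 and 31.8 in the same order and 2.51. Ascl2, an imprinted factor of the placenta, had 33.8 in the day-6 control and 5.34 in the shLhx1os library, within the range of 1.92 to 5.52 of the others. The shLhx1os values of Rhox6 and Ascl2 lay among those of days 4 and 5.

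The lists show the same. The median of the 15 trophoblast genes at the floor was -1.81 against the day-6 control and 0.12 against the day-5 controls, with 13 lower and 8 at least 2-fold lower in the former comparison. The keratins Krt8 (1148 and 2187 FPKM) and Krt18 (1195 and 2097) were the 2 higher members, and the placental hormone and protease genes Prl3d1, Tpbpa and Ctsq were listed at 0 in both libraries. The 6 blood and endothelial genes at the floor, of 29 in the table, had medians of -2.32 and -0.43. In shFendrr the trophoblast median was -0.35 in replicate 1 and 0.31 in replicate 2, and that of the blood genes -0.38 and -0.39. Hba-x and Hbb-bh1, embryonic globins, had 6.01 and 5.95 FPKM in the day-6 control and were listed at 0 in the shLhx1os library, and Hba-x was also listed at 0 in the CJ9 controls of days 4 and 5. Ttr, a carrier protein of visceral endoderm, had 8.34 and 0.0825 FPKM, and was listed at 0 in the same 3 controls. Whether the control or the hairpin library is the unusual member of the pair cannot be told apart with 1 library a side.

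**Figure D5:**
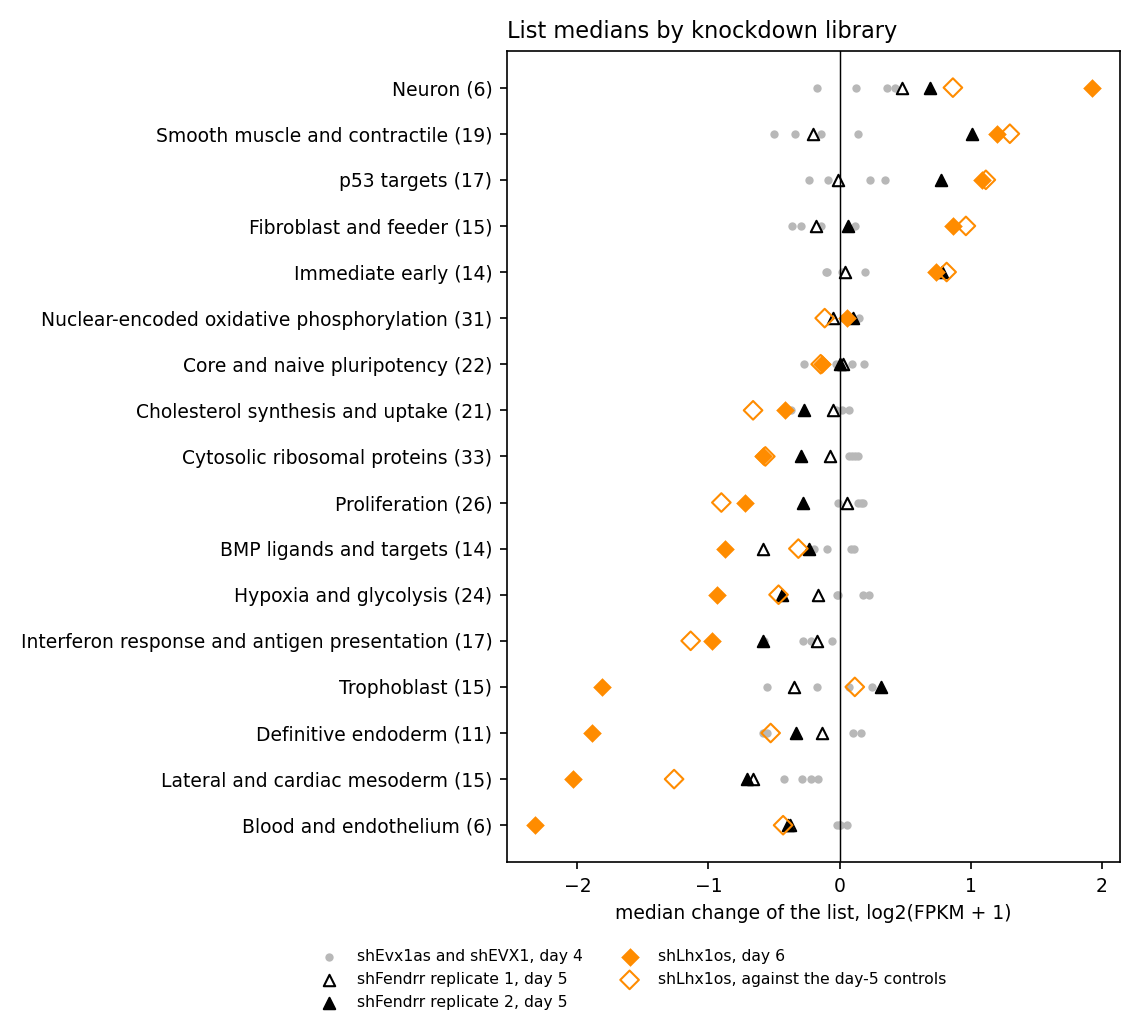
Median change of the same 17 lists in shLhx1os against its day-6 control (filled diamonds) and against the mean of the day-5 controls (open diamonds), and in the shFendrr (triangles), shEvx1as and shEVX1 libraries (dots) against their own controls, on the log2(FPKM + 1) scale. Trophoblast moves from -1.81 to 0.12 with the day-5 controls, whereas the p53 targets stay near 1.1, at 1.09 and 1.12.

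Pluripotency genes differed little. Of 22 at the floor, 1 was at least 2-fold lower and 2 higher, and the median was -0.14. Pou5f1, which encodes Oct4, had 587, 287, 271 and 167 FPKM in the CJ9 controls of days 4, 5, 5 and 6 and 176 in the shLhx1os library. Nanog was level at 33.7 in both, and Sox2 had 48.0 and 37.4. The 2-fold lower member was Dppa3, a germ cell and naive-state gene, with 9.47 and 1.87, and the higher ones were Dppa2 (3.88 and 9.52) and Nr0b1 (2.17 and 5.51). Among primitive streak genes T, which encodes Brachyury, had 326 FPKM on day 4, 20.9 in the day-6 control and 24.2 in the shLhx1os library. Cdx2, a homeobox factor of posterior mesoderm and trophoblast, had 14.7, 22.5, 27.1 and 44.3 in the CJ9 controls of days 4, 5, 5 and 6 and 9.73 in the shLhx1os library. Of the 14 at the floor, 4 were at least 2-fold lower and Wnt3 (11.2 and 34.2) was 2-fold higher. The median was -0.09, and -1.41 against the day-5 controls.

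Neuronal genes at the floor were higher. All 6 neuronal genes at the floor, of 20, were higher, 4 of them at least 2-fold, with a median of 1.92 (over all 20, 0.36), and 3 of the 6 reached the floor in the shLhx1os library alone and had to be higher. Against the day-5 controls the median was 0.86, and in shFendrr it was 0.48 in replicate 1 and 0.69 in replicate 2. Stmn2, a stathmin of neurons, had 140, 129, 128 and 58.9 FPKM in the CJ9 controls of days 4, 5, 5 and 6 and 73.5 in the shLhx1os library, within their range. Gap43, a protein of growing axons, had 18.7 and 72.9, above all 4. Nefl, the neurofilament light chain, had 308, 46.5, 40.9 and 5.60 FPKM in the CJ9 controls of days 4, 5, 5 and 6 and 63.7 in the shLhx1os library, so its level was near that of day 5. Stmn4, of the same family as Stmn2, was the largest upward difference among entries with a gene name and beyond the yardstick. It had 0.246 FPKM in the control and 36.9 in the shLhx1os library, above the 0.570 to 2.82 of the other CJ9 controls. Its level was 13.8 in shFendrr replicate 2 and 0.511 in replicate 1. Of 27 neural progenitor genes 4 were at the floor, 2 of them in the control alone. Nes, an intermediate filament of progenitors, had 6.02 and 55.0 FPKM, whereas the other 3 were lower: Msi1 (15.5 and 4.06), Irx3 (5.80 and 1.98) and Sox2. The median of the 4 was -0.77 (over all 27, 0.12), and 0.10 against the day-5 controls. Elavl4, Snap25 and Slc17a6, markers of mature neurons, were listed at 0 in both libraries.

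Interferon-response genes were lower. Of 17 at the floor, 15 were lower, 8 at least 2-fold and 11 below all 4 CJ9 controls, with a median of -0.98 (-1.14 against the day-5 controls). Of all entries at the floor 58.1% were lower and 33.1% below all 4. In shFendrr the list's median was -0.17 in replicate 1 and -0.58 in replicate 2. Bst2, an antiviral membrane protein, had 331 and 58.4 FPKM, Isg15, a ubiquitin-like modifier, 19.6 and 3.94, and Usp18, its protease, 13.3 and 1.06. The 2 higher members were the MHC light chain B2m, with 94.5 and 160, and Gbp2, with 35.7 and 55.1.

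Imprinted genes were mostly lower as well. Of 20 at the floor 16 were lower and 8 at least 2-fold lower (6 after rescaling), beside 58.1% lower among all entries at the floor, with a median of -0.71. Another 4 were higher, 2 of them at least 2-fold, Nnat and Ndn. Of the 20, 2 reached the floor in the control alone and had to be lower, and over all 27 in the table the median was -0.46. In shFendrr the list's median was -0.05 in replicate 1 and -0.19 in replicate 2. Phlda2, which restrains placental growth, had 216, 265, 247 and 330 FPKM in the CJ9 controls and 46.9 in the shLhx1os library. Igf2, the fetal growth factor, had 2294 and 930 in the day-6 pair but 453 and 748 in the day-5 controls. Cdkn1c had 98.1 and 23.8, the latter within the 17.2 to 45.9 of the earlier CJ9 controls. Nnat had 40.9 and 153, above all 4 controls, and Ndn 9.75 and 22.6. Hoxb9 was the only Hoxa or Hoxb gene at the floor, with 1.36 and 13.8 FPKM, and was at 0.330, 0.547 and 1.57 in the earlier controls.

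Matrix and epithelial genes went both ways. Of 23 extracellular matrix genes at the floor, 10 were higher and 13 lower, 3 each way by at least 2-fold, with a median of -0.09, which was 0.54 against the day-5 controls. The basement membrane collagens Col4a1 (112 and 274 FPKM) and Col4a2 (103 and 217) were higher together, above the day-4 and day-5 controls, and the fibulins Fbln1 (21.4 and 5.49) and Fbln2 (5.77 and 1.08) were lower. Among genes of the epithelial-mesenchymal transition, the ligand Tgfb2 had 14.9 and 41.3 FPKM, while the mesenchymal cadherin Cdh11 had 9.23 and 1.41 and the repressor Snai1 34.0 and 12.9. Cdh1, the epithelial cadherin, had 304 and 380.

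Wnt and Hedgehog pathway genes were described from the same kind of list. Of 13 Wnt genes at the floor, 8 were lower and 5 higher, with 3 at least 2-fold lower, Wnt3 at least 2-fold higher and a median of -0.42 (-0.98 against the day-5 controls). Nkd1, a feedback inhibitor of Wnt, had 5.64 and 1.19 FPKM. Of the 13, 2 reached the floor in the control alone, Nkd1 among them, and had to be lower. Over all 26 Wnt genes the median was -0.05. Of 8 Hedgehog genes at the floor 3 were at least 2-fold lower, Foxf1, Gas1 and Ptch1, and Ptch1, the receptor that is also a target, had 16.8 and 5.07. Of the 8, 3 reached the floor in the control alone, Foxf1 and Gas1 among them, and had to be lower, and over all 14 in the table the median was -0.30.

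Stress-response and histone genes split as well. Of 24 genes of the integrated and endoplasmic reticulum stress responses, 12 lay above the control and 12 below it, and their median was -0.12. Ddit3, which encodes Chop, had 8.97 and 22.2 FPKM, above all 4 CJ9 controls, and the amino acid transporter Slc7a5 98.0 and 39.7. Cth, an enzyme of cysteine synthesis, had 11.4 and 37.6 but 43.3 and 41.3 in the day-5 controls. Of 11 replication-dependent histone genes at the floor, 4 were at least 2-fold higher and 2 lower, with Hist1h4i at 3.04 and 17.6 and Hist1h2ab at 67.3 and 31.3, and in poly(A)-selected libraries such transcripts are captured only in part. Of the 11, 5 reached the floor in the shLhx1os library alone, Hist1h4i among them, and had to be higher. The median was 0.76 (over all 19, 0.37), and 1.51 against the day-5 controls. After rescaling, none of the 11 was 2-fold lower.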

How the data were processed

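Poly(A) RNA of 19 libraries was sequenced from stranded libraries, per the labels' protocols. The authors deposited 1 table of FPKM values for all libraries. CASAVA, TopHat2 2.0.11, mm10 and mm9 are named in the submitters' processing notes. Details of the quantifier, annotation and strand use were not given in the sources used here, so antisense and overlapping entries are uncertain. The table's coordinates are not GRCm38, since 5.22% of 21450 symbols matched to RefSeq had an end within 1000 bp of it, and no coordinate was converted.

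From the FPKM values, changes were computed as log2(FPKM + 1) in the shLhx1os library minus its control, for entries of at least 5 FPKM in either (Python 3.11.15, pandas 2.3.3, numpy 2.4.6, scipy 1.17.1, matplotlib 3.10.9). A change of 1 or more in size was called 2-fold. The yardstick of an entry is its largest absolute difference over 7 replicate pairs. Fragment totals are not in the table, so relative depth was read from the steps of entries under 0.3 FPKM, and precision is known only from the replicate pairs. The scripts were tested on simulated data. With 1 library a side no p-value was computed.

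Genes were named by rule: those within 500 kb of Lhx1, the 15 largest differences each way, up to 4 members of a list past 2-fold, up to 3 of the highest markers of a cell type, and up to 2 members of a list with none past 2-fold. The 15 each way were taken from the 321 higher and 487 lower entries beyond the yardstick that had a gene name. Unnamed loci and RIKEN, Gm, accession-only, microRNA and similar names were left out. Other genes in the text were named after their values were seen. The members and the 44 lists, which overlap, were chosen with earlier results of these data known. Other pseudocounts, floors, scalings, yardsticks and the day-5 controls were tried. Some list members are counted but not reported here by name.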

Additional observations from a re-analysis of the deposited data

How the results depend on the processing

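No paired analysis was possible because each side of the experiment has 1 library. The counts stayed within 1.5 times their main values under every alternative run: between 323 and 679 entries were at least 2-fold higher and between 378 and 794 lower, and beyond the yardstick between 391 and 465 were higher and between 420 and 604 lower. With the mean of the day-5 controls in place of the day-6 control, chosen for the counts and list medians after seeing the data, as was the yardstick without the shFendrr pair, 509 and 649 entries were at least 2-fold higher and lower. Of 125 named genes past 2-fold, all 125 kept their direction under the other pseudocounts and scalings, and 117 with the day-5 controls, where 87 also passed 2-fold. With those controls the change was 0.12 for Rhox6, 0.11 for Ttr, 0.14 for Ascl2, 0.51 for Ndrg1 and 0.38 for Irx3, each lower in the main comparison. It was 0 for Hba-x, listed at 0 in all 3 libraries. It was -0.0499 for Krt14 and -0.17 for Cth, both higher in the main comparison, and the trophoblast median was 0.12. Of the other list medians 28 moved with those controls by more than the replicate SD of the median and 14 by less. Some of these also changed sign, among them extraembryonic endoderm (-0.42 to 0.33), primed epiblast (0.42 to -0.35) and presomitic and paraxial mesoderm (0.11 to -0.28). Neural progenitor (-0.77 to 0.10) and extracellular matrix genes (-0.09 to 0.54) did so too. The cause was not tested. The changes had a Spearman rho of 0.06 with transcript length and -0.15 with GC content over 8432 genes (97.0% of the named entries at the floor). Day of harvest differs between the day-5 controls and the shLhx1os library, and its part cannot be told apart from that of the hairpin. Low entries such as Lhx1os are limited by depth.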
